A study of Mus musculus with 5 samples.

Results

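The SR proteins, the heterogeneous nuclear ribonucleoproteins (hnRNPs) and the SF3 and PRPF proteins of the spliceosome were followed as 49 genes of the 21983 in the deposited count table. They were chosen by symbol: Srsf, Sf3a, Sf3b or Prpf followed by a digit, or Hnrnp, with at least 50 reads summed over the 5 libraries. The 49 comprise 9 Srsf, 18 Hnrnp, 9 Sf3 and 13 Prpf genes, and 1 further Hnrnp gene was left out by name. The least counted gene inside this minimum, Hnrnph3, had 1026 reads, and outside it Srsf12 had 19, Hnrnpu had 1 and Srsf1 was listed at 0. Srsf1 and Hnrnpu encode proteins that most cell types make, and other widely used splicing genes, Sf1, Usp39 and Snrnp40, were also listed at 0, as was the microglial receptor gene Trem2. No statement on the expression of these genes is made from such entries.

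Microglia, macrophages that reside in brain tissue, were taken as primary cells from mouse brain and profiled by RNA sequencing. The 2 knockout-labelled libraries carry Cx3cr1CreERT2 together with Ythdf2fl/fl, and the 3 control libraries carry Ythdf2fl/fl without the Cre, so floxed Ythdf2 is common to both groups and the Cre at the Cx3cr1 locus is not. The Cre is a tamoxifen-dependent recombinase under Cx3cr1, a gene that other macrophages and monocytes use too. Age, sex, tamoxifen treatment and whether each library is a separate animal or culture are not given in the labels, so p-values reflect no more than variation among these libraries, possibly technical. The comparison asks which processes change in microglia when Ythdf2, a cytoplasmic reader of N6-methyladenosine (m6A) that sends marked mRNAs to decay, is lost.

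SR proteins bind exonic enhancers through RNA recognition motifs and use an arginine- and serine-rich domain to help U1 and U2 particles settle at splice sites. The hnRNPs coat nascent transcripts and often oppose exon inclusion, although many also act on mRNA stability and export. The SF3a and SF3b complexes hold the U2 particle on the branch site, and PRPF proteins belong to or activate the U4/U6.U5 tri-snRNP. Several SR and hnRNP genes limit their own mRNA by splicing in exons that trigger nonsense-mediated decay.

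Total gene counts were 15743468 and 19577217 in the knockout-labelled libraries 1 and 2, against 13947500 to 15744558 in the controls. Ythdf2 was not lower in the knockout-labelled libraries. It stood at 103.5 and 127 CPM (reads relative to library size, scaled by TMM factors) there, against 57.0, 69.2 and 68.8 CPM in the controls, so each direction below rests on the labels alone. Which exons are floxed is not given in the labels, and reads from other exons would still be counted. Cx3cr1 was at 337 and 97.7 CPM in the knockout-labelled pair, against 682, 992 and 681 CPM in the controls. Of 16 microglia markers, 15 had reads, and they summed to 5582 and 12690 CPM in the knockout-labelled libraries against 10490 to 13590 CPM in the controls. Oligodendrocyte markers summed to 12630 and 4651 CPM in the knockout-labelled libraries against 1286 to 10700 CPM in the controls. In such bulk samples fewer cells of a type and less RNA per cell cannot be told apart.

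Most of these splicing factor genes had somewhat lower values in the knockout-labelled libraries, but none passed the test. The log2 fold change, labelled knockout over control, was negative in 43 of the 49 genes and positive in 6, where 48.9% of all genes tested were negative. The median over the 49 was -0.25, against 0.01 over the 12543 genes tested. All 49 passed the filter on low counts. By edgeR's quasi-likelihood test with Benjamini-Hochberg adjustment over all genes, 0 of the 49 had an adjusted p under 0.05, against 0.0% of all genes tested, and the smallest adjusted p among the 49 was 0.556. At an unadjusted p under 0.05 edgeR gave 3 of the 49, where 6.68% of all genes tested reached this level. All 3 had lower values, a direction that held 2.69% of all genes tested, and 0 had higher values, against 3.99%. DESeq2 called 0 of the 49 after adjustment, against 1.68% of the genes it gave an adjusted p. After adjustment limma-voom called 0 of the 49, against 0.0% of all genes tested. The unadjusted p was under 0.05 for 2 of the 49 in DESeq2, against 7.72% of all genes tested, and for 3 in limma-voom, against 6.05%. In 15 of the 49 both knockout-labelled libraries lay below every control, and in 0 did both lie above, against 10.4% and 9.85% of all genes tested. The first count became 20 without knockout-labelled library 1, where the share of all genes was 23.5%, 34 without knockout-labelled library 2, where the share of all genes was 37.0%, and 27 without control 2, where it was 17.0%.

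**Figure D1:**
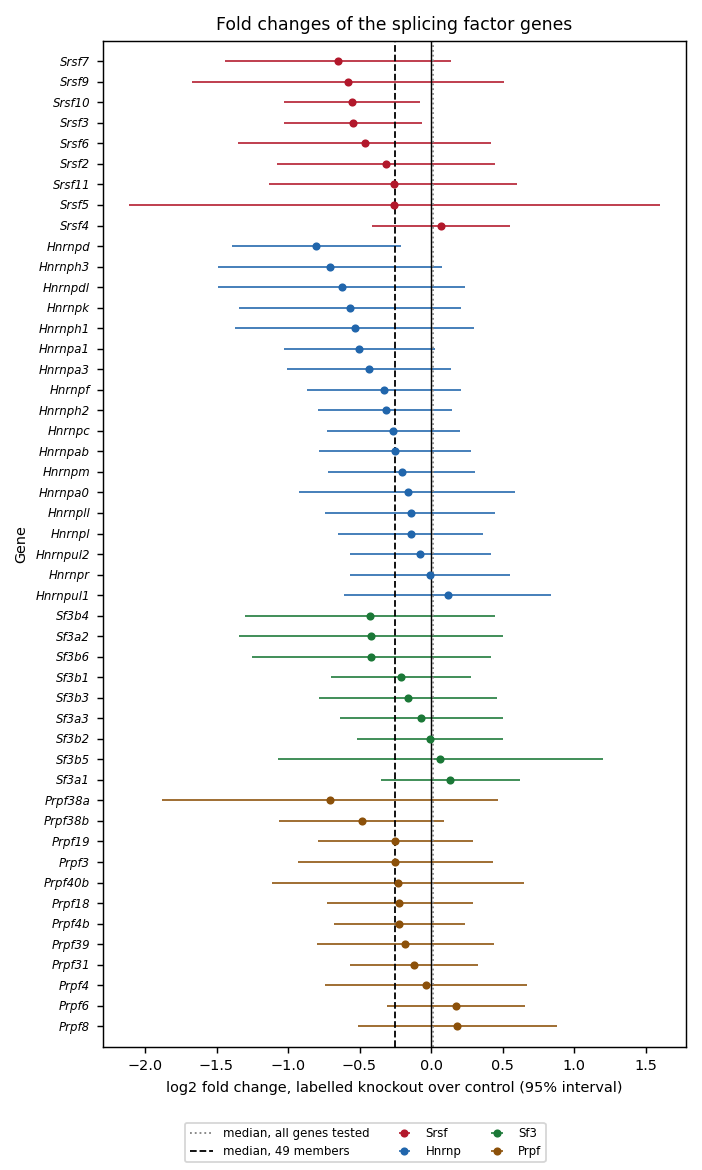
Log2 fold change of each gene reported, labelled knockout over control, on the horizontal axis, with its 95% interval from the edgeR fit, and genes down the page by family. The medians of the 49 genes (-0.25, dashed) and of all genes tested (0.01, dotted) are marked; the intervals of Hnrnpd, Srsf10 and Srsf3 lie below 0 and the remaining intervals cross it, before any adjustment.

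The promoters of the 3 genes with an unadjusted p under 0.05 are shown to give the sequence context of the members nearest to a call. Each line is the 200 bases before the RefSeq transcription start (GRCm38.p6), 5′ to 3′ on the gene's strand, with capitals marking 5 motifs searched on both strands. The GC box was searched as GGGCGG and the CCAAT box by the letters of its name. The ETS motif was searched as CCGGAAG. The E-box was searched as CACGTG. The TATA box was searched as TATAAA. None of the marked letters of different motifs overlap in these windows.
Hnrnpd: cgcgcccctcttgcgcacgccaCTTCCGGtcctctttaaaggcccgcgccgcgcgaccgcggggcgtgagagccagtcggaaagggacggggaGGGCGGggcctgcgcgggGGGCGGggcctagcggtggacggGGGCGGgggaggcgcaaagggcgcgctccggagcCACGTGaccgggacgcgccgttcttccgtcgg
Srsf10: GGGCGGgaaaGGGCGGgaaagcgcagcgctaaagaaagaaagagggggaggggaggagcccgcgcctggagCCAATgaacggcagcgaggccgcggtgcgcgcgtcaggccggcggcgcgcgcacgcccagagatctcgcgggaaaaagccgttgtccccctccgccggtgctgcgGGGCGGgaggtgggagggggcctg
Srsf3: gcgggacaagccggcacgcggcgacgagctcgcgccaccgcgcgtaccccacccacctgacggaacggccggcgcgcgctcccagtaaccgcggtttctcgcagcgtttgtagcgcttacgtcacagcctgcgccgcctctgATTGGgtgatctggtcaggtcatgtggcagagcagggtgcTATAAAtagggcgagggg
The Hnrnpd window is chr5:99978939-99979138 (minus strand), that of Srsf10 is chr4:135855871-135856070 (plus strand) and that of Srsf3 is chr17:29032460-29032659 (plus strand). In the GENCODE M21 annotation Srsf10 starts at 135855747 and Srsf3 at 29032628. By that annotation the Srsf10 window lies inside the gene and the Srsf3 window partly does. Hnrnpd and Srsf10 each hold 3 GC boxes and no TATA box, whereas Srsf3 holds a TATA box and no GC box. Among the 43 members with an entry, 62.8% held a GC box, 48.8% a CCAAT box, 25.6% the ETS letters, 9.3% an E-box and 7.0% a TATA box in this window. Among the 9872 tested genes with an entry the shares were 57.2%, 33.0%, 12.8%, 7.5% and 4.5%. A match describes letters only, and binding was not measured.

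Among the SR protein genes, Srsf10 and Srsf3 lay below every control in both knockout-labelled libraries, and the groups of the other 7 overlapped. These 2 make up 22.2% of the 9 Srsf genes, against 10.4% of all genes tested. Srsf10 encodes an SR protein that turns into a splicing repressor when dephosphorylated, and Srsf3 encodes a small SR protein that also takes part in mRNA export. As background, the nuclear m6A reader YTHDC1 is known to recruit SRSF3 to transcripts and to hinder SRSF10. Srsf10 (chr4:135855747-135869908, GRCm38, GENCODE M21) was at 48.3 and 41.9 CPM in the knockout-labelled pair, against 63.7, 69.6 and 65.3 CPM in the controls. Both knockout-labelled libraries lay below all controls. The means were 45.1 ± 4.50 (SD, n = 2) and 66.2 ± 3.08 CPM (SD, n = 3), with a log2 fold change of -0.55 (SE 0.193, edgeR adjusted p = 0.669). Srsf3 (chr17:29032628-29043373) was at 48.4 and 47.1 CPM in the knockout-labelled pair, against 69.6, 62.9 and 76.6 CPM in the controls. Its groups did not overlap either, at a log2 fold change of -0.55 (SE 0.197, edgeR adjusted p = 0.679). Over the 15 other settings tried, the log2 fold change of Srsf10 lay between -0.69 and -0.46 and that of Srsf3 between -0.63 and -0.47.

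Srsf7, whose protein adds a zinc knuckle to the SR design, was at 32.2 and 43.9 CPM in the knockout-labelled pair, against 64.4, 40.9 and 74.2 CPM in the controls. Control 2 lay between the knockout-labelled libraries, so the groups overlapped (log2 fold change -0.65, SE 0.321, edgeR adjusted p = 0.842). Srsf5 had the widest spread of all 49 genes, 4.74-fold between its extreme libraries. It was at 31.1 and 147.5 CPM in the knockout-labelled pair, against 139, 45.6 and 135.5 CPM in the controls. Knockout-labelled library 1 and control 2 were low together, and the remaining libraries were close to each other. Without knockout-labelled library 1 the log2 fold change of Srsf5 was 0.44, and with all 5 libraries it was -0.26. Srsf2, an SR protein of nuclear speckles, was at 136 and 222 CPM in the knockout-labelled pair, against 259, 173 and 238.5 CPM in the controls. Srsf6, a relative of Srsf5, was at 85.0 and 163 CPM in the knockout-labelled pair, against 199, 128 and 187 CPM in the controls. The same pair of libraries was lowest for both, and their log2 fold changes of -0.32 and -0.46 were -0.04 and -0.10 without knockout-labelled library 1. Srsf9 and Srsf11 had log2 fold changes of -0.58 and -0.26 with overlapping groups. Srsf4, the only Srsf gene with a positive value (0.07), varied 1.21-fold over the 5 libraries. Opposite-strand exons cover 43.0% of the merged exons of Srsf4 (Gm12992) and 25.3% of those of Srsf2, and the strand setting of the counting is unknown here.

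**Figure D2:**
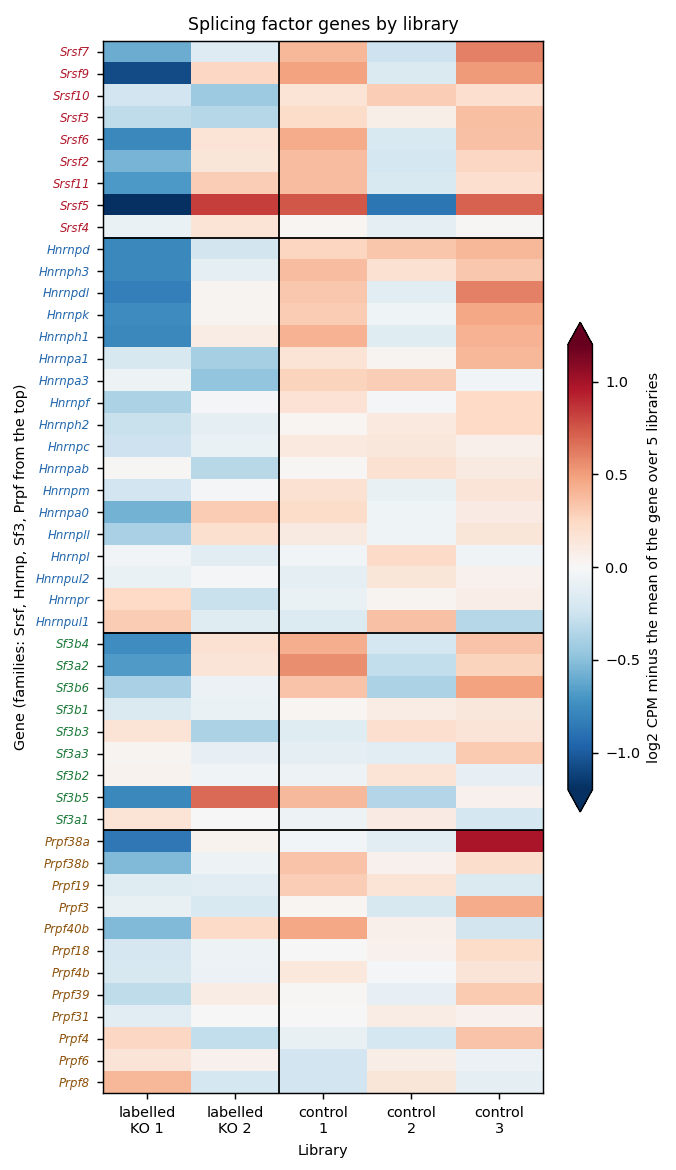
Each cell is a gene's log2 CPM in 1 library minus its mean over the 5 libraries (colour scale from -1.2 to 1.2, values beyond it drawn at the end colours), with the knockout-labelled libraries left of the controls and genes grouped by family. Knockout-labelled library 1 is the lowest of the 5 for 29 of the 49 genes, and control 2 shares low values with it in most Srsf genes.

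The pattern of Srsf5 ran through the SR genes. In 7 of 9 Srsf genes knockout-labelled library 1 and control 2 were the 2 lowest libraries, as they were in 6 of 18 Hnrnp, 4 of 9 Sf3 and 2 of 13 Prpf genes. Over all genes tested this held for 22.5%. Knockout-labelled library 1 was the lowest of the 5 in 29 of the 49 genes (59.2%), against 33.1% of all genes tested, and control 3 the highest in 19 (38.8%), against 22.5%. As a median over the 49 genes, log2 CPM deviated from the gene's mean by -0.25 and -0.06 in the knockout-labelled libraries 1 and 2, and by 0.16, 0.03 and 0.20 in controls 1 to 3. For the Srsf genes alone these medians were -0.60 and 0.16 in the knockout-labelled libraries, and 0.37, -0.19 and 0.36 in the controls. The groups of the Srsf medians thus overlapped.

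These library differences were set beside transcript length and GC content. Across the 49 genes, Spearman's rho between the longest annotated transcript and the deviation of a library was 0.38 and -0.32 in the knockout-labelled libraries 1 and 2, and -0.34, 0.40 and -0.38 in controls 1 to 3. Over the 12510 tested genes with a length it was 0.43 and -0.33 in the knockout-labelled libraries, and -0.29, 0.29 and -0.29 in the controls. Genes share these libraries and are not independent replicates, so the values are descriptive. Corrected for each library's trend on length, the 49 genes had a median log2 fold change of -0.30, against -0.05 over all genes tested. Of the 49, 43 were negative. In this fit edgeR called 0 of the 49, and its smallest adjusted p over all genes tested was 0.171. The 49 genes had a median longest transcript of 3522 bases, against 3488 for all genes tested, and a median GC content of 45.5%, against 49.7%. The letters GGACT, a frequent form of the m6A consensus, occurred 0.734 times per kb in the median member and 1.04 times per kb in the median tested gene, and methylation itself was not measured. For GC content, rho with the deviation across the 49 genes was 0.29 and 0.21 in the knockout-labelled libraries 1 and 2, and -0.12, 0.06 and -0.48 in controls 1 to 3. Over all genes tested it was -0.03 and 0.16 in the knockout-labelled libraries, and 0.18, -0.02 and -0.20 in the controls. With the log2 fold change, rho was 0.44 for GC content and 0.33 for length across the 49 genes, and 0.10 and 0.24 over all genes tested. Corrected for each library's trend on GC content, the 49 genes had a median log2 fold change of -0.27, against -0.035 over all genes tested. Of the 49, 43 were negative. In this fit edgeR called 0 of the 49, and its smallest adjusted p over all genes tested was 0.205. Across the 49 genes the density of GGACT had a Spearman's rho of 0.15 with the log2 fold change.

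**Figure D3:**
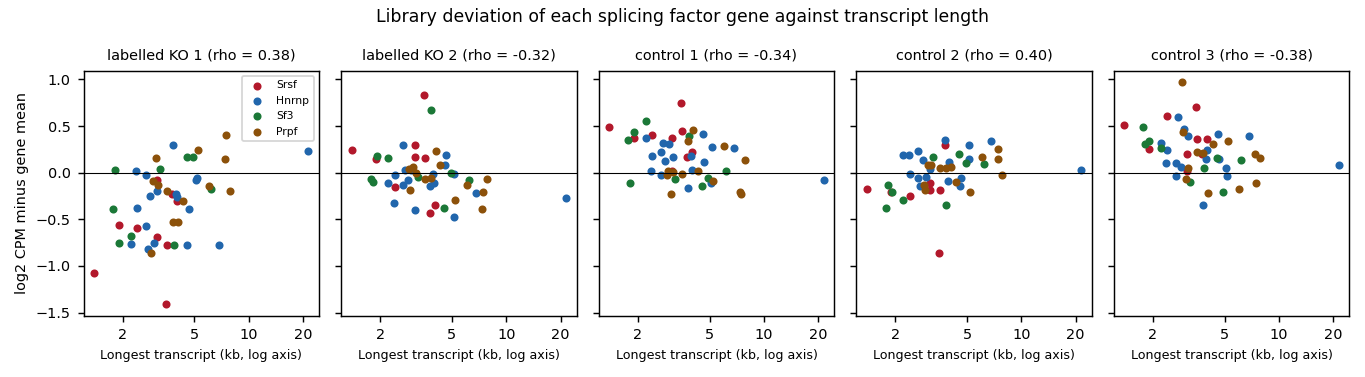
Each panel is 1 library, and each point 1 of the 49 genes, with the length of its longest transcript in kb on a log axis and its log2 CPM minus the mean of the gene over the 5 libraries. Points slope upward in knockout-labelled library 1 (rho = 0.38) and control 2 (rho = 0.40) and downward in knockout-labelled library 2 and controls 1 and 3.

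Among the hnRNP genes, 8 of 18 lay below every control in both knockout-labelled libraries: Hnrnpd, Hnrnpa1, Hnrnph3, Hnrnpa3, Hnrnph2, Hnrnpf, Hnrnpc and Hnrnpab. That is 44.4% of the family, against 10.4% of all genes tested. The count was 6 with DESeq2's size factors, where all genes were at 9.85%, and 14 without knockout-labelled library 2, where all genes were at 37.0%. The family's median log2 fold change was -0.29, and 17 of 18 values were negative. Hnrnpd encodes AUF1, which binds AU-rich elements and promotes decay of many cytokine mRNAs. Hnrnpd (chr5:99955935-99978938) was at 50.9 and 75.0 CPM in the knockout-labelled pair, against 104, 110 and 115 CPM in the controls. The controls lay close together and well above both knockout-labelled libraries. Its means were 62.9 ± 17.1 (SD, n = 2) and 110 ± 5.19 CPM (SD, n = 3), a 1.74-fold lower mean in the knockout-labelled libraries (log2 fold change -0.80, SE 0.239, 95% interval -1.39 to -0.21). It had the smallest unadjusted p of the 49 genes, 0.0157 in edgeR, with an adjusted p = 0.556. Across the other settings its log2 fold change ran between -1.11 and -0.58 and its adjusted p between 0.229, without knockout-labelled library 2, and 1.

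Hnrnpa1, a classical repressor of exon inclusion, was at 44.55 and 38.5 CPM in the knockout-labelled pair, against 57.1, 52.3 and 67.2 CPM in the controls. Its groups did not overlap (log2 fold change -0.50, SE 0.215, edgeR adjusted p = 0.772). Hnrnph3, of the family that binds runs of G, was the least abundant Hnrnp gene by count, at 7.26 and 11.5 CPM in the knockout-labelled libraries against 16.15, 14.2 and 15.6 CPM in the controls. The log2 fold change of Hnrnph3 was -0.71 (SE 0.318, edgeR adjusted p = 0.807). Its relatives Hnrnpf and Hnrnph2 had log2 fold changes of -0.33 and -0.32, also without overlap, and Hnrnph1 one of -0.53 with overlap. Exons on the other strand cover 26.5% of the merged exons of Hnrnpf. Hnrnpc, which binds runs of U, was at 117 and 131.5 CPM in the knockout-labelled pair, against 151, 153 and 145 CPM in the controls. That difference was small and the controls were tight (log2 fold change -0.27, SE 0.188, edgeR adjusted p = 0.905).

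Hnrnpul1, Hnrnpa0 and Hnrnpab were the hnRNP genes with the highest mean CPM. Hnrnpd, Hnrnpa1 and Hnrnph3 above were named for their small p, so whether abundant genes differed less cannot be read from this contrast. The log2 fold change of Hnrnpab was -0.25, near the family's median of -0.29. Hnrnpa0, which binds AU-rich mRNAs in stimulated macrophages, was at 161 and 294 CPM in the knockout-labelled pair, against 278, 230 and 256 CPM in the controls, while the fitted log2 fold change of -0.16 was 0.18 without knockout-labelled library 1. Hnrnpab was at 233.9 and 184 CPM in the knockout-labelled pair, against 234.0, 263 and 249 CPM in the controls, so that library 1 of the pair and control 1 were nearly equal. Exons of Phykpl on the other strand cover 29.1% of its merged exons. Hnrnpul1, the 1 Hnrnp gene with a positive log2 fold change (0.12), was at 314 and 231 CPM in the knockout-labelled pair, against 228, 325 and 201 CPM in the controls. Knockout-labelled library 1 and control 2 were here the highest, the reverse of the Srsf5 order.

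**Figure D4:**
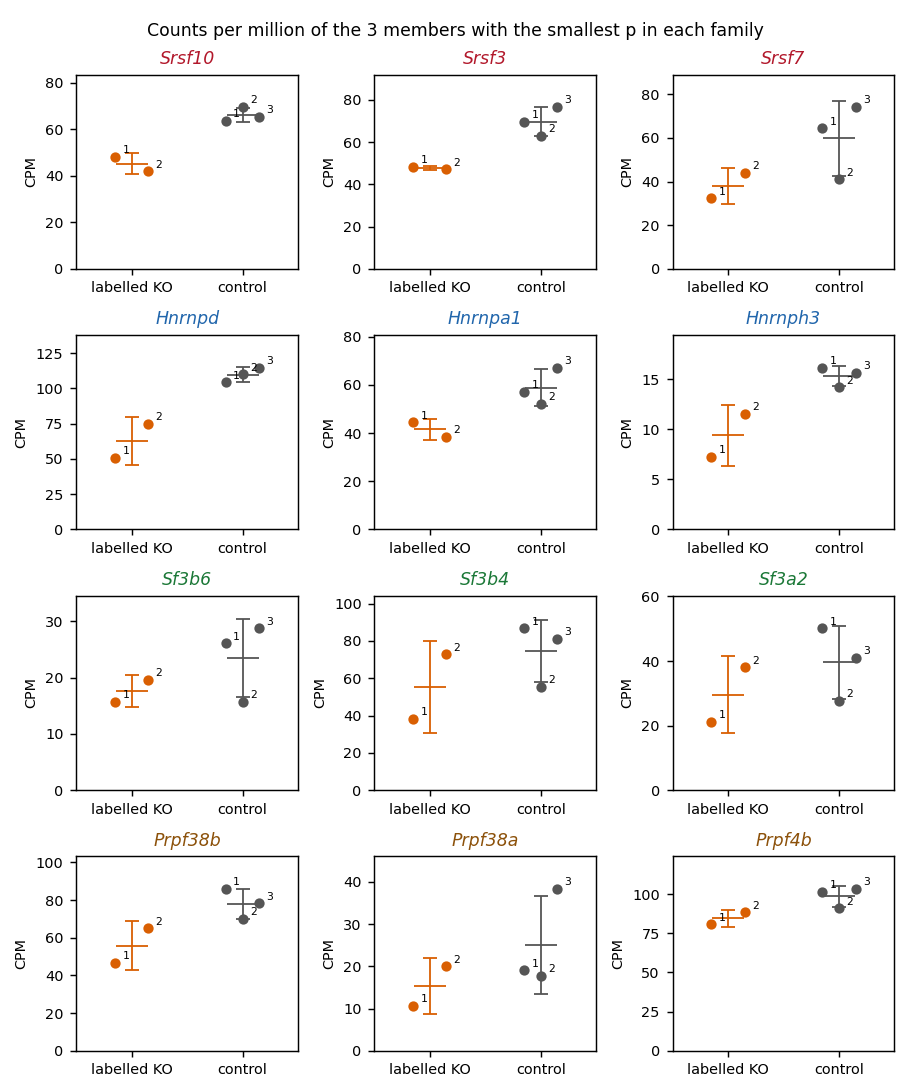
CPM of the 3 genes with the smallest unadjusted p in each family, with the knockout-labelled libraries (orange) left of the controls (grey), numbered by replicate, and bars at the mean ± SD (n = 2 and n = 3). Srsf10, Srsf3, Hnrnpd, Hnrnpa1, Hnrnph3, Prpf38b and Prpf4b show no overlap between groups, and the remaining panels do.

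The SF3 genes, which encode the U2 branch site machinery, had a median fitted log2 change of -0.16, with 7 of 9 negative. Sf3b1, whose protein clamps the branch site helix, was the most counted of them and the only Sf3 gene without overlap, at 274 and 292 CPM in the knockout-labelled pair, against 313, 329 and 340 CPM in the controls. Its log2 fold change was -0.21 (SE 0.200, 95% interval -0.70 to 0.28). A share of 1 in 9 Sf3 genes (11.1%) is near the 10.4% of all genes tested. Sf3b4 was at 38.1 and 72.8 CPM in the knockout-labelled pair, against 86.8, 55.4 and 81.2 CPM in the controls, and Sf3b6, which touches the branch adenosine, at 15.6 and 19.6 CPM against 26.1, 15.7 and 28.8 CPM. Sf3a2 was at 21.2 and 38.05 CPM in the knockout-labelled pair, against 50.2, 27.75 and 41.0 CPM in the controls. In each of these knockout-labelled library 1 was lowest and control 2 next, and the edgeR adjusted p was 0.921 for Sf3b6 and 0.924 for Sf3b4 and Sf3a2. Sf3b2 and Sf3b3, subunits of SF3b, had log2 fold changes of -0.01 and -0.16.

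Of the 13 PRPF genes, 11 had negative values, with a median of -0.22, and 4 (30.8%) lay below every control in both knockout-labelled libraries (Prpf38b, Prpf4b, Prpf18 and Prpf31), against 10.4% of all genes tested. Without knockout-labelled library 2 that count was 7, where all genes were at 37.0%. Prpf38b, related to the activation factor Prpf38a, was at 46.75 and 64.9 CPM in the knockout-labelled pair, against 85.9, 70.0 and 78.3 CPM in controls, at a difference in means that the test did not call (log2 fold change -0.48, SE 0.233, edgeR adjusted p = 0.834). Prpf38a was at 10.65 and 20.05 CPM in the knockout-labelled pair, against 19.0, 17.8 and 38.35 CPM in the controls. Control 3 stood alone among the controls of Prpf38a, and the log2 fold change of -0.70 was -0.26 without it and -0.35 without knockout-labelled library 1. Prpf4b, a kinase that acts on tri-snRNP proteins, was at 80.8 and 88.4 CPM in the knockout-labelled pair, against 101, 90.9 and 103 CPM in the controls, with a log2 fold change of -0.22 (SE 0.189). Prpf19, the ubiquitin ligase of the complex that carries its name, had a log2 fold change of -0.25 with overlapping groups. Exons on the other strand cover 18.1% of the merged exons of Prpf31.

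Prpf8, the scaffold of the catalytic centre, had the highest CPM of the 49 genes. Its level was 729.5 and 477 CPM in the knockout-labelled pair, against 471, 611 and 510.5 CPM in the controls, so knockout-labelled library 1 and control 2 were again the pair apart, here on the high side. Its log2 fold change of 0.18 (SE 0.284, edgeR adjusted p = 0.940) was -0.18 without knockout-labelled library 1 and -0.10 after the length correction. Per kb of merged exon, the scale on which genes can be set against each other, the highest mean levels were 91.1 CPM per kb for Hnrnpa0, 83.7 for Hnrnpab, 75.0 for Prpf8, 69.6 for Srsf2 and 62.6 for Hnrnpf. The ranges over the libraries of these 5 genes overlapped, from 60.1 to 110 CPM per kb for Hnrnpa0 and 63.2 to 97.8 for Prpf8. The lowest were Prpf39 at 2.50 and Hnrnpr at 2.71 CPM per kb, and merged exons include rarely used ones, which lowers such values.

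Other genes of the splicing pathway, in lists taken from textbook knowledge, were read from the same fit, and 0 of their members passed it. The 7 kinases that phosphorylate SR proteins (Srpk and Clk genes) had a median fitted log2 change of 0.10, with 6 of 7 positive. Srpk2 was at 91.0 and 67.8 CPM in the knockout-labelled pair, against 58.4, 63.8 and 63.4 CPM in the controls. Its groups did not overlap (edgeR adjusted p = 0.874). That is 1 of the 7 (14.3%) above every control, against 9.85% of all genes tested. Srpk1 was at 87.8 and 51.2 CPM in the knockout-labelled pair, against 44.4, 55.0 and 58.4 CPM in the controls, while the fitted log2 fold change of 0.40 was -0.07 without knockout-labelled library 1. Among 17 SR-related regulators the median was -0.06, with 10 negative. Tra2b, an SR-like enhancer factor, was at 25.2 and 23.4 CPM in the knockout-labelled pair, against 39.5, 36.6 and 43.9 CPM in the controls. Its groups did not overlap (log2 fold change -0.72, SE 0.212, edgeR adjusted p = 0.553). Of the 17 regulators 2 (11.8%) lay below every control, against 10.4% of all genes tested. Srrm2, a scaffold of nuclear speckles, was at 1015 and 757.5 CPM in the knockout-labelled pair, against 610, 787 and 615 CPM in the controls.

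Genes for the core particles had negative medians too. The U1 and Sm proteins (13 tested) had a median fitted log2 change of -0.22 and the LSm proteins (8 tested) one of -0.38, while 11 branch site factors had -0.33 and 17 tri-snRNP and Prp19 proteins -0.18. U2af2, the large subunit of the U2 auxiliary factor, was at 107 and 114 CPM in the knockout-labelled pair, against 162, 143 and 149 CPM in the controls, and Dhx15, a helicase of spliceosome disassembly, at 91.4 and 108.5 CPM against 127.5, 118 and 137 CPM. Both lay below every control, with log2 fold changes of -0.46 and -0.35. Plrg1 and Isy1, of the Prp19-related complexes, also lay below every control (-0.45 and -0.54), as did Snrpf and Lsm6 (-1.27 and -0.60), whereas Snrpd1 and Lsm3 overlapped (-0.62 and -0.54). The Snrpf value rests on 0.476 to 3.02 CPM, and opposite-strand exons cover 85.4% of its merged exons. Below every control were 1 of 13 U1 and Sm genes (7.69%) and 1 of 8 LSm genes (12.5%). For branch site factors it was 3 of 11 (27.3%), and for tri-snRNP and Prp19 genes 4 of 17 (23.5%). The share over all genes tested was 10.4%. In the 8 spliceosome helicases the median was 0.00 with 4 negative, and Ddx39b and Ddx41 had -0.60 and -0.23 with overlap.

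All 5 exon junction complex genes had negative values, with a median of -0.70 over these 5. Casc3 was at 42.0 and 48.2 CPM in the knockout-labelled pair, against 63.3, 58.0 and 64.3 CPM in the controls, and Rbm8a at 14.2 and 20.4 CPM against 28.4, 21.3 and 34.6 CPM. Both were without overlap (edgeR adjusted p of 0.771 and 0.812). They are the 2 of 5 genes (40.0%) below every control, against 10.4% of all genes tested. The 10 genes of nonsense-mediated decay, the pathway that removes mRNAs with premature stops, had a median of -0.04 with 5 negative. Smg9 was at 16.8 and 47.7 CPM in the knockout-labelled pair, against 60.6, 50.4 and 50.3 CPM in the controls, also without overlap, and Smg5, also of this pathway, had a log2 fold change of -0.24. Of 30 other splicing regulators 22 were negative, with a median of -0.09. In 9 of these 30 (30.0%) both knockout-labelled libraries lay below every control, against 10.4% of all genes tested. In 1 (3.33%) both lay above, against 9.85%. Taf15, which encodes an RNA-binding protein, was at 28.0 and 37.2 CPM in the knockout-labelled pair, against 53.6, 48.5 and 59.0 CPM in the controls (edgeR adjusted p = 0.587). Mbnl3, of the muscleblind family, was at 3.39 and 0.811 CPM in the knockout-labelled pair, against 0.0629 to 0.297 CPM in the controls, a log2 fold change of 3.67 (SE 0.924, edgeR adjusted p = 0.348). These levels rest on 57 and 15 reads in the knockout-labelled libraries, against 1, 2 and 4 reads in the controls, and the log2 fold change of Mbnl3 was 2.30 without knockout-labelled library 1, 4.37 without knockout-labelled library 2 and 4.36 without control 3.

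**Figure D5:**
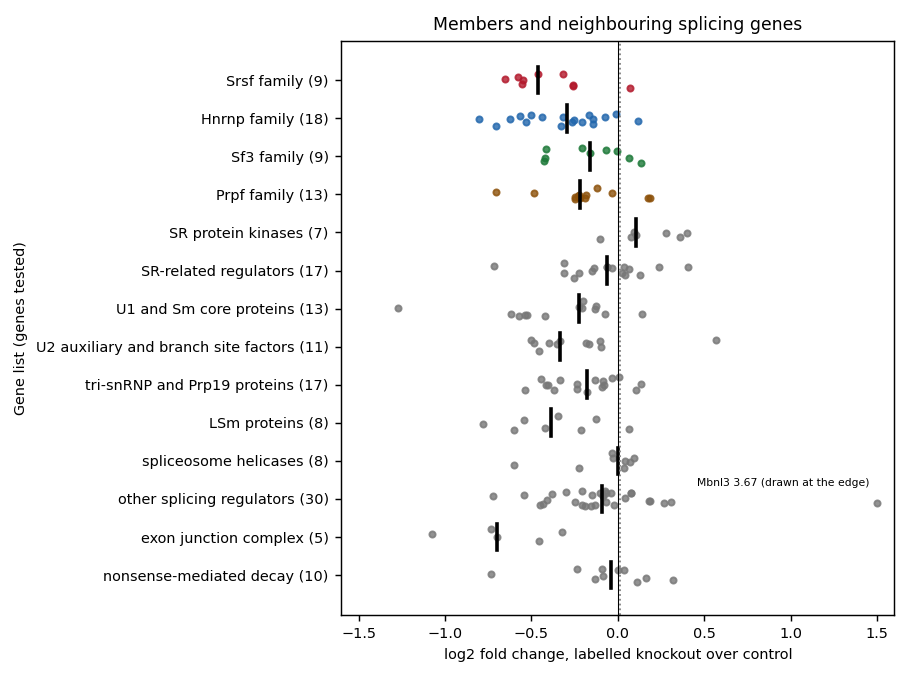
Log2 fold change, labelled knockout over control, of each gene tested in the 4 families (coloured) and in 10 neighbouring lists (grey), with black bars at the median of each list and a dotted line at the median of all genes tested (0.01). The medians of the 4 families lie between -0.46 and -0.16 and that of the exon junction complex at -0.70, while SR protein kinases lie at 0.10; Mbnl3 (3.67) is drawn at the edge.

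Markers of other cells and states differed between the same libraries. Cell cycle genes, 23 of 24 with reads, summed to 2510 and 797 CPM in the knockout-labelled pair, against 661, 684 and 1323 CPM in controls 1 to 3. Knockout-labelled library 1, with the lowest median over the 49 splicing factor genes, had the highest cell cycle sum. Control 3, with the highest median, had the next highest sum, so the 2 did not run opposite throughout. Mki67 alone gave 790 CPM of the sum in knockout-labelled library 1. Immediate early genes, 12 of 14 with reads (Jund and Egr2 listed at 0), summed to 384.5 and 861 CPM in the knockout-labelled pair, against 1067 to 1508 CPM in the controls. Choroid plexus markers, all 8 with reads, summed to 169 and 225 CPM in the knockout-labelled pair, against 11.9 to 30.7 CPM in the controls, and monocyte markers, 8 of 9 with reads and Chil3 listed at 0, to 153 and 219 CPM against 45.8 to 94.6 CPM. Neuronal markers summed to 181 and 46.2 CPM in the knockout-labelled pair, against 28.6 to 77.4 CPM in the controls, with Slc17a6 listed at 0. Astrocyte markers summed to 130 and 101 CPM in the knockout-labelled libraries against 51.3 to 241 CPM in controls, endothelial markers to 137 and 96.8 CPM against 51.4 to 134 CPM with Cldn5 listed at 0, and fibroblast markers to 34.8 and 15.6 CPM against 41.0 to 128 CPM. Neutrophil markers were near 0 throughout, at 4.76 CPM or less, with 5 of 10 listed at 0. These marker sums can rest on few genes and hide opposite directions. Ttr alone gave 101 and 203 CPM of the choroid plexus sums in knockout-labelled libraries 1 and 2. S100b gave 102 and 70.5 CPM of their astrocyte sums. Among astrocyte markers, both libraries lay below every control for Gfap and above every control for Aldoc. Among endothelial markers, both lay above every control for Vwf (55.6 and 81.8 CPM) and below for Pecam1 (1 and 2 reads). The part of these cells and states in the splicing factor values was not tested.

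Near-identical copies limit what a count says for some members. A stretch of at least 300 bases at 95% identity or more to transcripts of another annotated gene was found for 10 of the 49, among them Hnrnpa1, Hnrnpa3, Srsf3 and Srsf10. Such reads can be dropped or shared in counting. Only Hnrnpa3 and Srsf3 had such a copy in the table, Gm6793 with 16 reads and Gm12355 with 247 reads in all.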

How the data were processed

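Primary mouse microglia were sequenced in 5 libraries, and the authors deposited raw read counts by gene symbol, whole numbers with unequal library totals. Per the submitters' processing notes, the tools included FastQC, STAR and HTSeq, with build mm10. Versions, annotation and strand setting were not given in the sources used here. Group and replicate came from the titles, where the third control carries 2 different numbers and its library number was used. Total counts per library set the counting precision. Every pair of libraries differed far beyond counting noise (chi-square per degree of freedom 53.4 to 272.5). Members, gene lists and naming rule were chosen with earlier results of these data known. The rule named, in each family, the 3 members with the smallest edgeR p and the 3 with the highest mean CPM, any member called by edgeR or DESeq2, 2 genes with the smallest p in each neighbouring list, Ythdf2 and Cx3cr1. 1 member that meets it is counted but not reported here by name or drawn in the plots by gene. Other members named illustrate counts and were chosen after their values were seen.

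The test was edgeR 4.0.16's two-sided quasi-likelihood F test in R 4.3.3 on all 5 libraries (filterByExpr, TMM, robust, 3 residual degrees of freedom), adjusted over 12543 genes at 0.05, and was tested on simulated data. SEs derive from its F values. Log2 CPM used a prior count of 2. Alternatives were other scalings and filters, DESeq2 1.42.0, limma-voom (limma 3.58.1), a replicate block, each library left out, and loess correction (span 0.3) for transcript length and, added after seeing the data, GC content. GENCODE M21 matched 21926 symbols and supplied coordinates (GRCm38), overlaps and transcripts, and RefSeq (GRCm38.p6) supplied promoters.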

Additional observations from a re-analysis of the deposited data

How the results depend on the processing

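None of the 49 splicing factor genes was called under any of the 15 alternatives, and 40 to 44 of them stayed negative in number. The count over all genes tested was 0 in edgeR (838 at an unadjusted p under 0.05), 232 in DESeq2 and 4 with the replicate block. Control 3 has no partner by number in that block, so it adds nothing to the group difference there. The block rests on the library numbers, and whether these pair the libraries could not be checked. Deviations from the group means of same-numbered libraries correlated at 0.148 for number 1 and -0.562 for number 2. The deviations of the 2 knockout-labelled libraries mirror each other, so these correlations cannot show whether the numbers pair the libraries. In the block fit 0 of the 49 genes had an unadjusted p under 0.05. The median log2 fold change, all members, was -0.395 to -0.193 with single libraries left out, lowest without knockout-labelled library 2. Members below every control numbered 16 to 34 and those above every control 0 to 5 with single libraries left out, and 12 to 15 and 0 under the other scalings. With single libraries left out, all genes tested were at 13.8% to 37.0% below and 12.5% to 34.5% above every control, and under the other scalings at 9.85% to 11% below and 9.69% to 10.3% above. Sf3b2 stood at 0.01 with DESeq2's size factors and with library totals, at 0.00 with at least 1 CPM in 3 libraries and in DESeq2, and at -0.08 to 0.08 with single libraries left out. Hnrnpul1 stood at -0.01 with the replicate block and at -0.15 to 0.35 with single libraries left out, and Prpf8 at -0.10 after the length correction and at -0.18 to 0.46. Over the libraries left out, values ran from -1.78 to 0.44 for Srsf5, -0.66 to 0.18 for Hnrnpa0, -0.49 to 0.08 for Sf3b3 and -0.07 to 0.74 for Srpk1. The cause was not tested. With 2 libraries against 3, the 95% intervals of all members except Hnrnpd, Srsf10 and Srsf3 included 0, before any adjustment.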
